A study of Homo sapiens with 18 samples.

Results

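Prostaglandins are lipid signals made from arachidonic acid, which a phospholipase frees from membrane lipids, a cyclooxygenase turns into prostaglandin H2 and a terminal synthase turns into one of several end products. Prostaglandin E2 acts on cells through G protein-coupled EP receptors, of which EP2 and EP4 raise cyclic AMP, and the lipid is inactivated by a dehydrogenase. In senescent fibroblasts, which have stopped dividing and secrete inflammatory factors, prostaglandins are known as a lipid part of that secretion. The 10 genes described here cover these steps. PLA2G4A encodes the cytosolic phospholipase A2 that frees arachidonate. PTGS1 and PTGS2 encode cyclooxygenase 1, usually made at a steady level, and cyclooxygenase 2, the inducible form. PTGES, PTGES2 and PTGES3 encode the prostaglandin E synthases, PTGES being the inducible microsomal enzyme and PTGES3 also a co-chaperone of HSP90. PTGIS encodes prostacyclin synthase, PTGER2 and PTGER4 encode EP2 and EP4, and HPGD encodes the dehydrogenase that inactivates prostaglandin E2.

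All 10 genes were found by symbol among 57500 genes in the table of counts, and 9 of them passed the filter on low counts, out of 16994 genes that were tested. HPGD did not pass. The set was chosen by pathway membership and by 1 measured value, since PTGIS was noticed as one of the largest falls from proliferating to senescent cells. For this reason the comparison of senescent with proliferating cells is given below as a description with no test for any of the genes.

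The data are RNA sequencing of IMR90, a line of human embryonic lung fibroblasts, in 6 groups of 3 libraries each, made from polyA RNA of whole cultures. The groups were proliferating cells (Prol), cells made senescent by irradiation (Sen (IR)), irradiated cells given the uncoupler CCCP to clear their mitochondria (Sen (IR) + CCCP), and the last kind with acetate, with transfected mitochondrial DNA (mtDNA), or with both. The methods give 20 Gy of X-rays, CCCP for 48 h, 20 mM acetate and mtDNA on day 10. Acetate from day 3 and collection on day 12 are given for mitochondrial clearance. For the mtDNA transfection the methods give no day of collection. Below, Sen (IR) + CCCP is called the depleted group, and its 3 derivatives the acetate, mtDNA and combination groups. No group is labelled as having received transfection reagent without mtDNA, and none as irradiated cells given acetate or mtDNA with their mitochondria in place. An effect of mtDNA and an effect of its transfection therefore cannot be told apart in any comparison below. Acetate was given as its sodium salt per the methods, and no group is labelled as given sodium without acetate. An effect of acetate and an effect of the added sodium cannot be told apart either.

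Total counts ran from 24624886 to 46224280 per library, with a median of 29620505.5. Mitochondrially encoded transcripts made up 10.04 to 16.2% of TPM (a transcript level scaled for transcript length and for library size) in the Prol and Sen (IR) libraries and 0.289 to 1.56% in the 12 libraries given CCCP. The 1.56% was replicate 2 of the combination group, whose replicates 1 and 3 had 0.417 and 0.411%. All 9 fibroblast markers were above 1 TPM in every library, at 37.6 to 6519 TPM, whereas epithelial markers reached 4.76 TPM, endothelial markers 0.308 TPM and blood markers 4.30 TPM at most. Replicate 3 of Sen (IR) and replicate 2 of the combination group stood apart from the other replicates of their groups, with a chi-square per gene of 22.2 to 28.3 against 2.78 to 7.75 for the other replicate pairs. A call of a named gene that changes without 1 library is given with the adjusted p without it. Fewer cells with a transcript and less transcript per cell cannot be told apart in RNA from whole cultures. Per the study's figure legends the replicates are independent experiments, which the labels do not state, and the p-values measure the spread between these libraries.

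The promoter sequences of PTGS1, PTGS2 and PTGES, the 3 genes that fell with mitochondrial depletion and were higher with acetate in the tests below, are shown so that a reader can see what lies just upstream of each. RefSeq (GRCh38.p14) promoters were matched for 9 of the 10 genes, and for PTGIS none was matched. Each line gives the 250 bases before the first listed start, 5′ to 3′ on the gene's strand, with capitals where 1 of 7 searched motifs matched on either strand. The letters searched for the TATA box, which places the start of transcription, were TATAAA. For the cyclic AMP response element, which CREB binds, its shorter part TGACG was searched. The E-box, bound by factors of the helix-loop-helix class, was searched as CACGTG. AP-1, the FOS and JUN pair, was searched as TGANTCA. C/EBP factors, which act in inflammatory genes, were searched as TTNNGNAA. The GC box, bound by SP1, was searched as GGGCGG. NF-kB was searched as GGGRNNYYCC, where R is A or G, Y is C or T and N is any base. Sites that differ from the searched letters by 1 base were not marked, so lower case does not show that a site is absent.
PTGS2, chr1:186680424-186680673, minus strand: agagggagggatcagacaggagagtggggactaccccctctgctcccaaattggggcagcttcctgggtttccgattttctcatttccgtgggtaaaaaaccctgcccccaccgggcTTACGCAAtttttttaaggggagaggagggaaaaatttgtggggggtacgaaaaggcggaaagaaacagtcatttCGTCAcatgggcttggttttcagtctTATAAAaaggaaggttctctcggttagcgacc
PTGES, chr9:129753043-129753292, minus strand: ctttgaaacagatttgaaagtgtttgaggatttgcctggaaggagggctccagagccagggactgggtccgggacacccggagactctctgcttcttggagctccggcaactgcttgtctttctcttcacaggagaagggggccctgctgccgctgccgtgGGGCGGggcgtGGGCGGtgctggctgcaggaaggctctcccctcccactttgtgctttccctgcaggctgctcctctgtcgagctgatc
PTGS1, chr9:122370283-122370532, plus strand: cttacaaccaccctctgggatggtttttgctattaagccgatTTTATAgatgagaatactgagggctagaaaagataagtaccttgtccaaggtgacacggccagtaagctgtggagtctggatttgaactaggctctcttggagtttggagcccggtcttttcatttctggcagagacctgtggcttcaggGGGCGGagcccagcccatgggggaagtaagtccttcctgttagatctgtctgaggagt

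The PTGS2 window held a TATA box from base -32 to -27 before the start, a TGACG match on the opposite strand from -58 to -54 and a C/EBP match from -133 to -126. The PTGES window held no TATA box, and its 2 matches were GC boxes from -89 to -84 and from -78 to -73. The PTGS1 window held a GC box from -58 to -53 and TATAAA on the opposite strand from -208 to -203, far from the start. Another PTGS1 start is listed, whose window is not printed. That window held a C/EBP match from -115 to -108 and a GC box on the opposite strand from -202 to -197. Of all 35116 promoters in the RefSeq table, the same window held TATAAA in 10.7%, TGACG in 21.2%, TTNNGNAA in 33.2% and GGGCGG in 42.6%, and the E-box in 6.34%, AP-1 in 6.57% and the NF-kB motif in 9.96%. These are matches of letters and not measured binding. No 2 matches in a printed window overlap each other. In GENCODE, an alternative PTGS2 transcript begins upstream of this window, which lies in its first intron, and the antisense gene PACERR begins inside the window on the opposite strand.

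By position (GRCh38, GENCODE v44), PTGS2 lies on chromosome 1 from 186671791 to 186680922, minus strand, with PLA2G4A nearby on the same chromosome from 186828949 to 186988981, plus strand. PTGS1 (122370530 to 122395703, plus strand), PTGES (129738331 to 129753042, minus strand) and PTGES2 (128120693 to 128128462, minus strand) all lie on chromosome 9. PTGES3 is on chromosome 12 from 56663341 to 56688408, PTGIS on chromosome 20 from 49503874 to 49568137 and HPGD on chromosome 4 from 174490175 to 174523154, all on the minus strand. PTGER2 is on chromosome 14 from 52314305 to 52328598 and PTGER4 on chromosome 5 from 40679915 to 40693735, both on the plus strand. The counts are sums over exons of each gene. PACERR shares 219 of the 5484 exon bases of PTGS2 and was counted at 1 to 12 reads per library, against 189 reads or more for PTGS2. TTC33 overlaps PTGER4 on the opposite strand but shares 0 exon bases with it. Whether these libraries were counted by strand is not given in the sources used here.

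Sen (IR) is set beside Prol here to show the course into senescence. PTGS2 was higher, with PLA2G4A and PTGER4 also higher, and PTGIS and PTGER2 were lower. The libraries of the groups did not overlap for 6 of the 10 genes in CPM (counts scaled by the TMM library sizes of edgeR, without regard to transcript length), beside 60.6% of all genes tested, and nothing is read from this count because the comparison took part in choosing the genes. The fold changes in this paragraph come from the edgeR fit and carry no test. PTGS2 stood at 6.30, 5.11 and 3.83 TPM in Prol and at 51.5, 50.2 and 50.1 TPM in Sen (IR), a log2 fold change of 3.26 ± 0.11 (SE, n = 3 per group). The lowest senescent library was thus far above the highest proliferating one. PTGIS was the opposite case, at 17.1, 17.3 and 14.9 TPM in Prol and 1.03, 0.924 and 0.749 TPM in Sen (IR). Its log2 fold change of -4.24 ± 0.17 was rank 5 from the largest fall among the 16994 genes. PLA2G4A was at 6.26, 4.81 and 4.87 TPM in Prol and 12.4, 14.7 and 11.04 TPM in Sen (IR), a difference of 1.18 ± 0.14. PTGER4 was at 7.83, 7.02 and 7.82 TPM in Prol and 19.5, 17.9 and 18.1 TPM in Sen (IR), a difference of 1.21 ± 0.10. The other receptor went the other way: PTGER2 was at 54.3, 60.3 and 55.9 TPM in Prol and 28.7, 33.2 and 27.6 TPM in Sen (IR), a difference of -1.01 ± 0.10. PTGS1 stood at 77.8 to 82.3 TPM in Prol and 65.7 to 78.7 TPM in Sen (IR), which makes -0.21 ± 0.08 on the log2 scale. The 3 prostaglandin E synthases differed by 0.06 ± 0.22 (PTGES), 0.03 ± 0.09 (PTGES2) and -0.01 ± 0.04 (PTGES3), and their libraries overlapped.

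**Figure D1:**
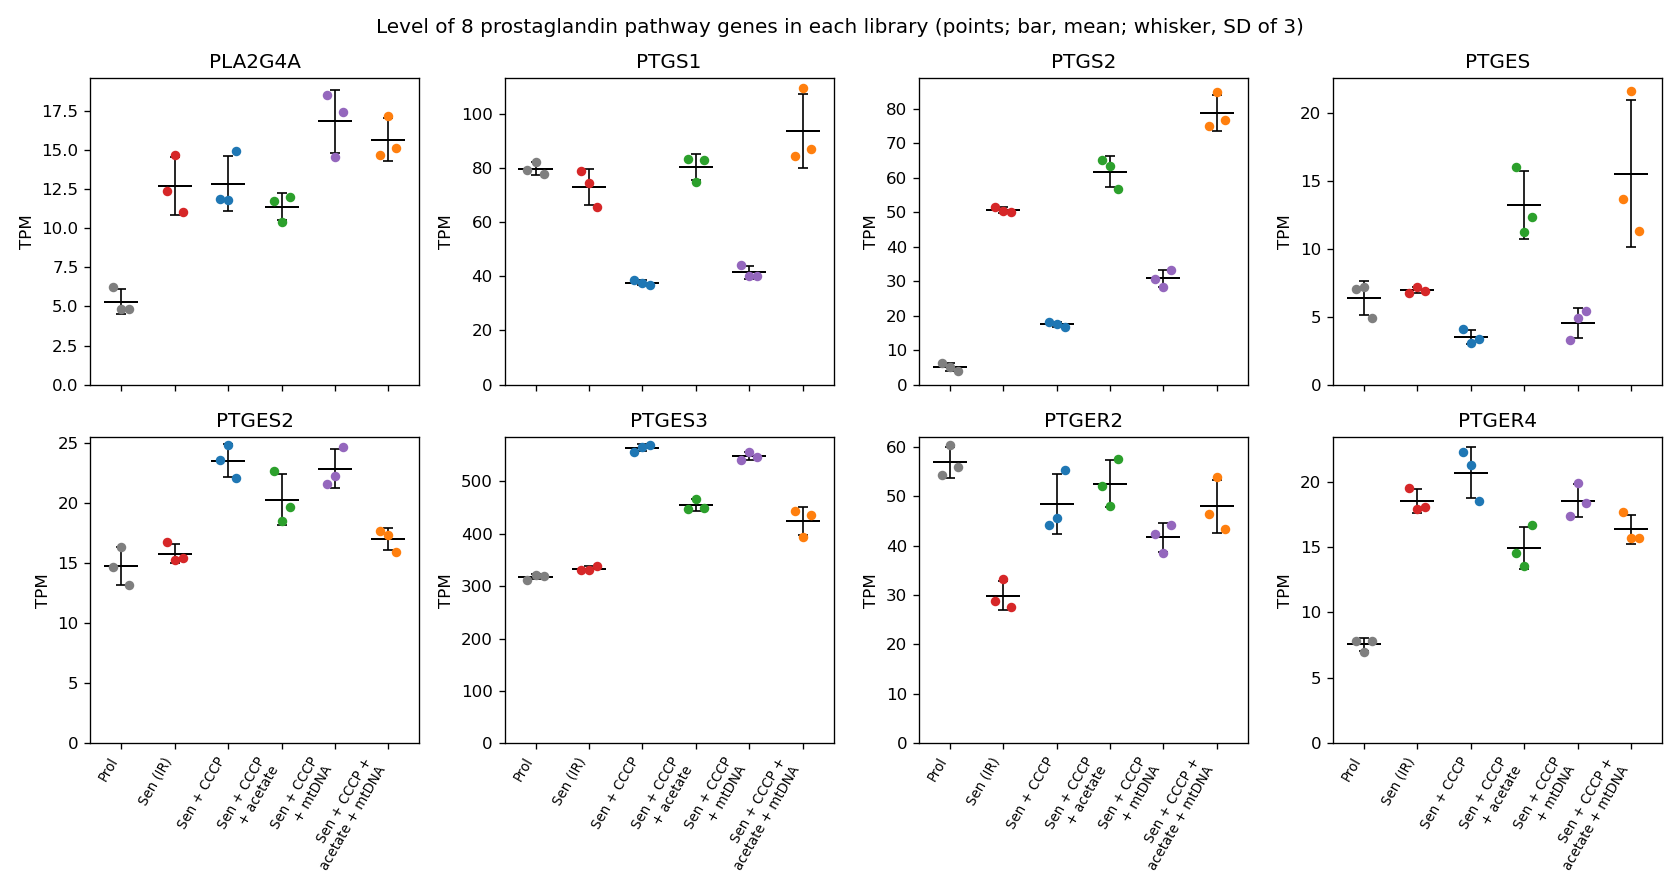
TPM (vertical axis, linear from 0, own scale per panel) of 8 genes in each of the 18 libraries, by group on the horizontal axis, with the mean of each group as a bar and its SD (n = 3) as a whisker. PTGS1, PTGS2 and PTGES are low in the depleted and mtDNA groups and high in the acetate and combination groups, while PTGES3 is highest in the depleted group and the mtDNA group.

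Levels can be compared between genes only on the TPM scale. PTGES3 was the most abundant of the 10 genes in every group, at 318 ± 4.80 TPM (SD, n = 3) in Prol and 564 ± 6.99 TPM in the depleted group. PTGS1 exceeded PTGS2 in every group mean, by 79.7 ± 2.30 against 5.08 ± 1.24 TPM in Prol and by 93.6 ± 13.8 against 78.8 ± 5.22 TPM in the combination group. Among the synthases PTGES was the least abundant, with 0.596% ± 0.098 of the summed TPM of PTGES, PTGES2 and PTGES3 in the depleted group and 3.44% ± 1.36 in the combination group.

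Whether clearing the mitochondria with CCCP changes these genes in senescent cells is asked by the comparison of the depleted group with Sen (IR). Loss of mitochondria and other effects of CCCP cannot be told apart in it. Both cyclooxygenases and the inducible PTGES fell, by 1.38 to 1.95 on the log2 scale, while PTGES3 and the receptor PTGER2 rose by 0.33 and 0.27. Of the 8 genes tested, 7 passed an adjusted p of 0.05 in the edgeR quasi-likelihood test, 2 higher and 5 lower, beside 65.2% of all genes tested. The median log2 fold change of the 8 was -0.34, beside 0.03 over all genes tested. PTGIS is left out of this test because its Sen (IR) libraries chose it. These fold changes are on the CPM scale. The TPM scale lifts all genes of the depleted group by 0.43 (log2) relative to Sen (IR), and smaller changes can differ in sign or call between the scales.

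PTGS2 fell from 50.1 to 51.5 TPM in Sen (IR) to 18.3, 17.5 and 16.8 TPM in the depleted group, a log2 fold change of -1.95 ± 0.10 (SE, n = 3 per group; edgeR adjusted p = 9.8e-14). Every depleted library was below every Sen (IR) library, yet all remained above the Prol libraries. PTGS1 fell from 78.7, 74.4 and 65.7 TPM to 38.8, 37.5 and 36.7 TPM, a change of -1.38 ± 0.09 (edgeR adjusted p = 7.5e-12), and here the depleted libraries lay below those of Prol as well. PTGES fell from 6.76, 7.19 and 6.90 TPM to 4.11, 3.06 and 3.38 TPM, a change of -1.41 ± 0.25 (edgeR adjusted p = 4.4e-05), with no overlap between the groups. PTGES rests on few reads, 33 to 52 per depleted library.

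The remaining changes were smaller than 0.5 on the log2 scale. PTGES3 rose by 0.33 ± 0.04 (edgeR adjusted p = 2.9e-07), from 284 to 285 CPM in Sen (IR) to 352 to 362 CPM. PTGES2 differed by 0.15 ± 0.09 and did not pass (edgeR adjusted p = 0.165, 95% interval -0.03 to 0.32), though on the TPM scale it was higher by 0.55 (limma adjusted p = 2.2e-05). PLA2G4A fell by 0.42 ± 0.13 on this scale (edgeR adjusted p = 0.0080), but its libraries overlapped, its change on the TPM scale was 0.02, of the other sign, and without replicate 2 of Sen (IR) the adjusted p was 0.0717. PTGER4 fell by 0.27 ± 0.09 (edgeR adjusted p = 0.0114), but on the TPM scale its change was 0.15, of the other sign, and the adjusted p was 0.0695 without replicate 1 of Sen (IR) and 0.0783 without replicate 3 of the depleted group. PTGER2 rose by 0.27 ± 0.10 (edgeR adjusted p = 0.0246), with overlapping libraries. Its adjusted p was 0.0750 without replicate 1 of Sen (IR), 0.105 without replicate 3 of Sen (IR), the library that stood apart, and 0.167 without replicate 3 of the depleted group.

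Acetate, a substrate from which cells can make acetyl-CoA outside mitochondria, was given to the depleted cells to ask whether it changes their transcripts. Of the 5 genes that had fallen, 3 were higher with acetate, PTGS1 by 1.19, PTGS2 by 1.91 and PTGES by 1.99 on the log2 scale, while PTGER4 fell again and PLA2G4A did not pass. This comparison and the one before share the depleted libraries, so opposite signs in them are not independent of each other. Of the 9 genes tested, 6 passed the test, 4 higher and 2 lower, beside 57.1% of all genes tested. The median log2 fold change of the 9 was 0.22, beside 0.01 over all genes tested.

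PTGS2 stood at 65.2, 63.2 and 56.7 TPM with acetate, above the 16.8 to 18.3 TPM of the depleted group in every library, a log2 fold change of 1.91 ± 0.10 (edgeR adjusted p = 2.4e-13). PTGS1 stood at 83.5, 74.9 and 82.8 TPM, a change of 1.19 ± 0.09 (edgeR adjusted p = 1.5e-10). PTGES stood at 16.1, 11.3 and 12.4 TPM, a change of 1.99 ± 0.24 (edgeR adjusted p = 2.7e-07). No library of the acetate group overlapped a depleted one for any of these 3 genes. PTGES3 fell by 0.21 ± 0.04 (edgeR adjusted p = 0.00012) and PTGER4 fell by 0.38 ± 0.09 (edgeR adjusted p = 0.0011), both without overlap. PTGER4 was at 14.5, 13.5 and 16.7 TPM with acetate and at 22.3, 21.3 and 18.5 TPM without. PLA2G4A (-0.07 ± 0.13, 95% interval -0.33 to 0.19), PTGES2 (-0.13 ± 0.09, -0.30 to 0.05) and PTGER2 (0.22 ± 0.10, 0.03 to 0.41) did not pass, with edgeR adjusted p of 0.669, 0.235 and 0.054. PTGER2 passed when replicate 3 of the depleted group (adjusted p = 0.0056) or replicate 2 of the acetate group (adjusted p = 0.0143) was left out. It passed also with no filter on low counts (adjusted p = 0.0158), with at least 10 counts in every library (0.0463) and when only the compared groups were fitted (0.0207), so its call depends on these settings. PTGES2 passed by limma on the TPM scale alone (-0.21, adjusted p = 0.0460).

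**Figure D2:**
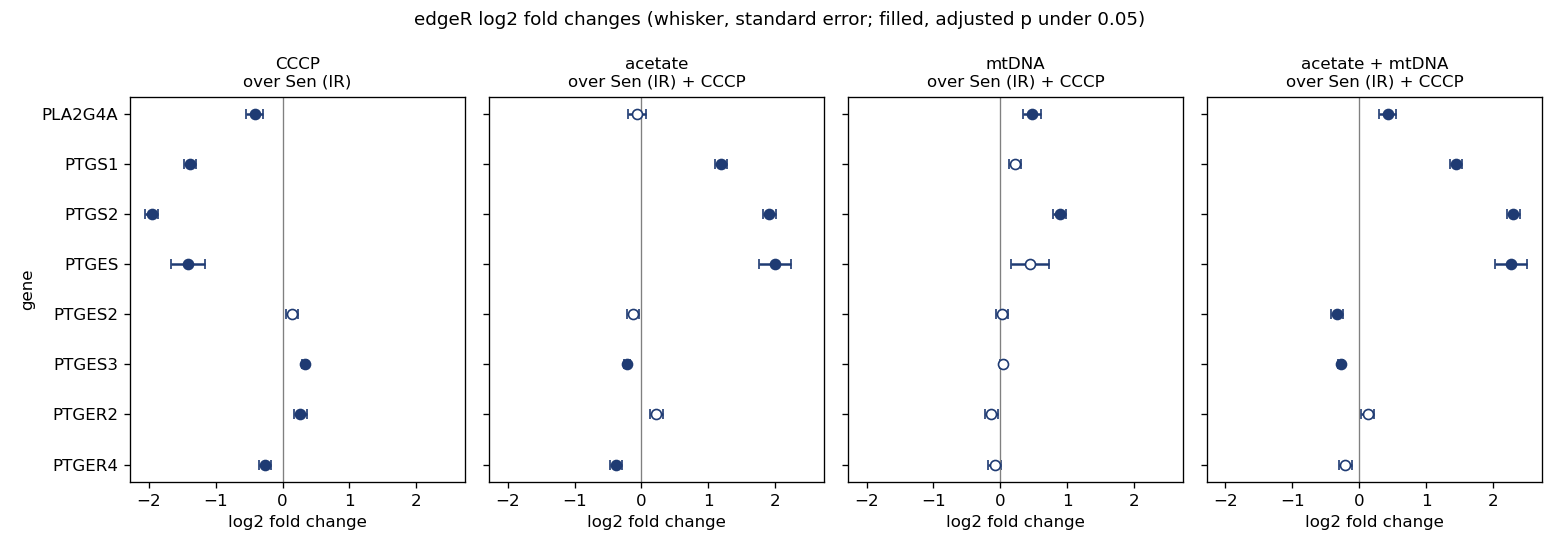
Log2 fold change from the edgeR fit (horizontal axis) of 8 genes (vertical axis) in 4 comparisons, with the standard error as a whisker and filled points where the adjusted p was under 0.05. PTGS1, PTGS2 and PTGES lie left of 0 in the first panel and right of 0 in the second and the fourth, while in the third, for mtDNA, PTGS2 and PLA2G4A are the filled points.

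Transfected mtDNA stands for the mitochondrial DNA that can leak into the cytosol of senescent cells. Over the depleted group, PTGS2 and PLA2G4A rose with mtDNA, by 0.89 and 0.47 on the log2 scale. Of the 9 genes tested, 3 passed, 2 higher and 1 lower, beside 18.1% of all genes tested, and the median log2 fold change of the 9 was 0.03, beside 0.0029 over all genes tested. PTGS2 stood at 30.7, 28.4 and 33.3 TPM, all above the depleted libraries and all below the acetate libraries, a log2 fold change of 0.89 ± 0.10 (edgeR adjusted p = 8.5e-07). PLA2G4A stood at 18.5, 14.6 and 17.4 TPM against 11.9, 11.8 and 14.9 TPM, which overlap on the TPM scale but not in CPM, a change of 0.47 ± 0.13 (edgeR adjusted p = 0.0145). The adjusted p of PLA2G4A was 0.0670 without replicate 1 of the depleted group, 0.0653 without its replicate 2, 0.0707 without replicate 1 of the mtDNA group, and 0.0501 by limma on the TPM scale, so the call rests on those libraries and on the scale. PTGS1 (0.21 ± 0.09, 95% interval 0.04 to 0.39, edgeR adjusted p = 0.113, but 0.0133 when only the compared groups were fitted and 0.0322 with no filter) and PTGES (0.45 ± 0.28, -0.11 to 1.00, edgeR adjusted p = 0.319) did not pass, nor did PTGES2, PTGES3, PTGER2 and PTGER4, whose changes lay between -0.13 and 0.03. The gene that passed in the lower direction was PTGIS, which is described below from its counts.

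With acetate and mtDNA together, PTGS2 had its highest level, above every library of the other groups, and PTGES had its highest mean, with libraries that overlapped those of the acetate group. The mean of PTGS1 was also the highest in TPM, at 93.6 against 79.7 in Prol and 80.4 in the acetate group, but in CPM it was 111 against 123 in Prol. Against the depleted group, 7 of the 9 genes tested passed, 5 higher and 2 lower, beside 61.7% of all genes tested, and the median log2 fold change of the 9 was 0.42, beside -0.04 over all genes tested. PTGS2 stood at 74.9, 84.7 and 76.8 TPM, a log2 fold change of 2.30 ± 0.10 (edgeR adjusted p = 1.3e-14). PTGS1 stood at 84.5, 109 and 86.9 TPM, a change of 1.45 ± 0.09 (edgeR adjusted p = 5.8e-12), and PTGES at 13.7, 21.6 and 11.3 TPM, a change of 2.26 ± 0.24 (edgeR adjusted p = 3.7e-08). Replicate 2, the library that stood apart, was the highest of the group for all 3 genes. Without it the 3 changes passed as well, and over all single libraries left out they ran from 2.24 to 2.36 for PTGS2, from 1.32 to 1.55 for PTGS1 and from 1.97 to 2.47 for PTGES. PLA2G4A rose by 0.42 ± 0.13 (edgeR adjusted p = 0.0083), with 0.27 and an adjusted p of 0.0675 by limma on the TPM scale, which shifts all genes by -0.13 in this comparison. PTGES2 fell by 0.34 ± 0.09 (edgeR adjusted p = 0.0031) and PTGES3 fell by 0.28 ± 0.04 (edgeR adjusted p = 4.3e-06). PTGER2 (0.12 ± 0.10, 95% interval -0.07 to 0.32; -0.01 on the TPM scale) and PTGER4 (-0.21 ± 0.09, -0.39 to -0.03) did not pass, with edgeR adjusted p of 0.291 and 0.0536, and without replicate 3 of the depleted group both passed (adjusted p = 0.0395 and 0.0333). PTGER4 passed also with at least 10 counts in every library (adjusted p = 0.0449) and by limma on the TPM scale (-0.32, adjusted p = 0.0040).

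What transfected mtDNA adds to acetate was asked by the combination group over the acetate group, where mtDNA and the transfection itself cannot be told apart. PTGS2 was higher by 0.39 ± 0.09 (edgeR adjusted p = 0.0048) and PLA2G4A by 0.49 ± 0.13 (edgeR adjusted p = 0.0150), and with PTGIS these made 3 of the 9 genes tested, all higher, beside 12.6% of all genes tested. The lowest PTGS2 value of the combination group, 74.9 TPM, was above the highest of the acetate group, 65.2 TPM. PTGS2 passed whichever library was left out, with adjusted p from 0.0052 to 0.0401. PLA2G4A stood at 14.7, 17.2 and 15.2 TPM against 11.7, 10.4 and 12.02 TPM, without overlap, but its adjusted p was 0.0568 without replicate 2 of the combination group and 0.0821 without replicate 2 of the acetate group. Without either of these libraries 1 gene of the 9, PTGS2, passed. PTGS1 (0.25 ± 0.08, edgeR adjusted p = 0.0526) and PTGES (0.27 ± 0.20, edgeR adjusted p = 0.412) did not pass, although PTGS1 passed without replicate 1 (adjusted p = 0.0179) or replicate 3 (adjusted p = 0.0292) of the combination group. PTGS1 passed too by the DESeq2 Wald test (adjusted p = 0.0171), with DESeq2 size factors (0.0280) and with no filter on low counts (0.0028). The change of PTGES was -0.04, of the other sign, without replicate 2 of that group. PTGES2 (-0.21 ± 0.09, edgeR adjusted p = 0.141, libraries without overlap), PTGES3 (-0.07 ± 0.04, edgeR adjusted p = 0.327), PTGER2 (-0.10 ± 0.10, edgeR adjusted p = 0.559) and PTGER4 (0.17 ± 0.09, edgeR adjusted p = 0.250) did not pass either.

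What acetate adds to mtDNA is shown by the combination group over the mtDNA group, in which 7 of the 9 genes passed, 5 higher and 2 lower, beside 57.4% of all genes tested. PTGS1 rose by 1.23 ± 0.09 (edgeR adjusted p = 1.0e-10), PTGS2 by 1.41 ± 0.09 (edgeR adjusted p = 2.0e-11) and PTGES by 1.82 ± 0.23 (edgeR adjusted p = 8.0e-07), none with overlapping libraries. PTGES2 fell by 0.37 ± 0.09 (edgeR adjusted p = 0.0018) and PTGES3 fell by 0.31 ± 0.04 (edgeR adjusted p = 1.2e-06). PTGER2 rose by 0.26 ± 0.10 (edgeR adjusted p = 0.0334), with an adjusted p of 0.105 without replicate 2 of the mtDNA group and 0.148 without replicate 2 of the combination group, and of 0.102 by limma on the TPM scale. PLA2G4A (-0.05 ± 0.13, 95% interval -0.30 to 0.20) and PTGER4 (-0.12 ± 0.09, -0.30 to 0.06) did not pass.

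The difference between the effect of acetate with mtDNA and its effect without mtDNA was tested as an interaction, which 0 of the 9 genes passed, beside 0.659% of all genes tested. At an unadjusted p under 0.05, 2 genes were found, PTGS2 and PTGIS, and the DESeq2 Wald test called both. For PTGS2 the interaction was -0.50 ± 0.13 (edgeR adjusted p = 0.0991), so its gain with acetate was 1.91 without mtDNA and 1.41 with it. Without replicate 2 of the combination group, the library that stood apart, the interaction of PTGS2 was -0.56 with an adjusted p of 0.0081, and DESeq2 gave -0.47 with an adjusted p of 0.0419. It passed also with no filter (adjusted p = 0.00012) and when only the compared groups were fitted (0.0426). Over the other 11 single libraries left out the adjusted p ran up to 0.221. For PTGS1 the interaction was 0.04 ± 0.12 (95% interval -0.20 to 0.28), and for PTGES it was -0.18 ± 0.34 (-0.85 to 0.50), an interval too wide to exclude changes of the size seen for PTGS2. The interaction was 0.02 ± 0.18 for PLA2G4A, -0.24 ± 0.13 for PTGES2, -0.10 ± 0.06 for PTGES3, 0.03 ± 0.14 for PTGER2 and 0.26 ± 0.13 for PTGER4, with edgeR adjusted p of 0.463 or more. For PTGIS, with 0 reads in the mtDNA group, no size is given, and the edgeR adjusted p was 0.114, against 0.0209 by the DESeq2 Wald test and 0.0092 with no filter.

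The summed cyclooxygenase transcripts and the share of them from PTGS2 put the 2 genes on one scale. PTGS2 made up 7.37, 5.85 and 4.69% of PTGS1 + PTGS2 TPM in Prol, 39.5, 40.3 and 43.2% in Sen (IR), and 32.0, 31.9 and 31.4% in the depleted group. The share was 43.8, 45.8 and 40.7% with acetate, 40.9, 41.5 and 45.4% with mtDNA, and 47.0, 43.6 and 46.9% with both. Every depleted library had a lower share than every library of the other 4 irradiated groups, with differences of -9.25 percentage points from Sen (IR), and of 11.7, 10.8 and 14.1 points for the acetate, mtDNA and combination groups over the depleted group. In each of these 4 comparisons the two-sided exact permutation p was 0.1, the smallest that 3 against 3 libraries can give, so the design cannot reach 0.05 for this measure. The combination group differed by 2.42 points from the acetate group (exact permutation p = 0.3) and by 3.25 points from the mtDNA group (exact permutation p = 0.2). The sum of both genes was 84.8 ± 2.94 TPM in Prol, 124 ± 7.28 in Sen (IR), 55.2 ± 1.77 in the depleted group, 142 ± 5.70 with acetate, 72.3 ± 3.38 with mtDNA and 172 ± 19.0 with both. The depleted and mtDNA sums thus lay below those of Prol in every library. Whether the acetate sum exceeds that of Sen (IR) depends on the scale. In CPM both means were lower with acetate than in Sen (IR), at 93.0 against 106 for PTGS1 and 65.0 against 66.9 for PTGS2. The sum and the share were chosen after the levels of both genes had been seen.

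**Figure D3:**
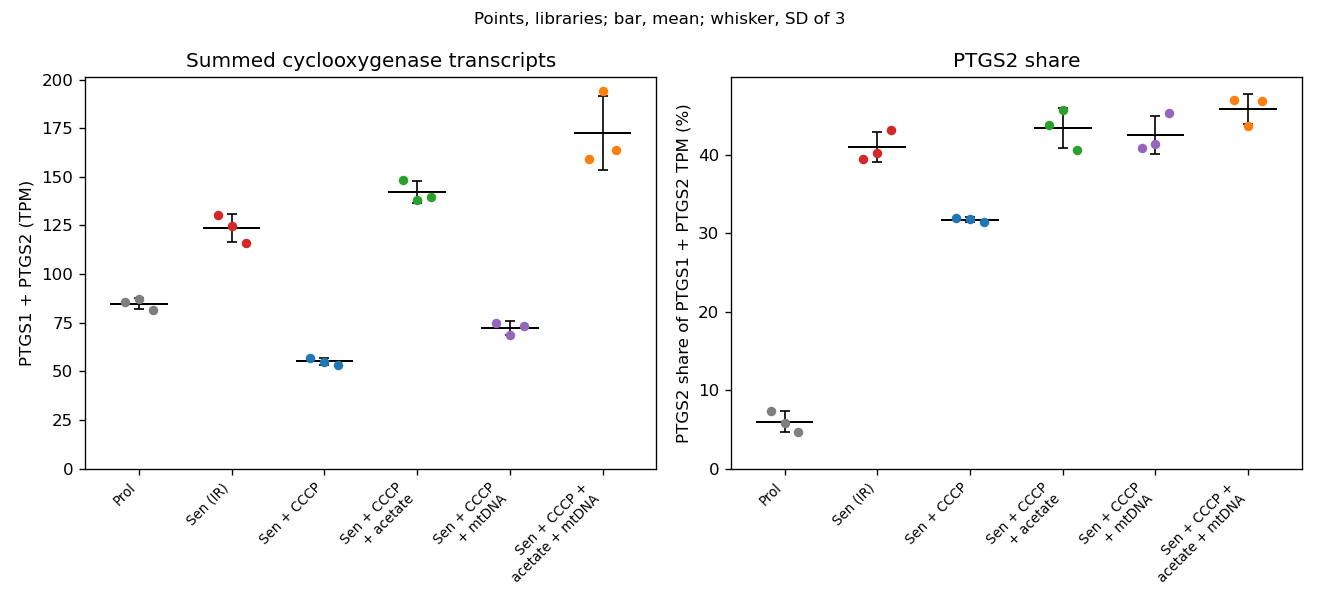
Summed TPM of PTGS1 and PTGS2 (left, linear axis from 0) and the share of that sum from PTGS2 in percent (right, linear axis from 0) in each of the 18 libraries by group, with mean and SD (n = 3). The depleted group has the lowest sum, 55.2 TPM, and among the irradiated groups the lowest share, 31.4 to 32.0%.

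How far the treated groups stood from Sen (IR) is given as a description, since no test was set for these comparisons. On the log2 scale of the edgeR fit, PTGS2 differed from Sen (IR) by -0.04 ± 0.09 with acetate, -1.07 ± 0.09 with mtDNA and 0.34 ± 0.09 with both. PTGS1 differed by -0.19 ± 0.08, -1.17 ± 0.09 and 0.06 ± 0.08 in the same order. PTGES differed by 0.59 ± 0.21, -0.96 ± 0.25 and 0.86 ± 0.21. With acetate, then, PTGS1 and PTGS2 libraries overlapped those of Sen (IR) in CPM while PTGES libraries were all higher, and on the TPM scale the PTGS2 libraries were all higher too. PTGER4 lay below Sen (IR) in all 3 groups, at -0.64 with acetate, -0.35 with mtDNA and -0.47 with both on the log2 scale, without overlap in CPM, whereas on the TPM scale the mtDNA group (18.5 ± 1.28) and Sen (IR) (18.5 ± 0.90) had the same mean.

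PTGIS, which makes prostacyclin, a vasodilator and inhibitor of platelet aggregation, is described from its counts because several groups hold almost none. It was counted at 652, 677 and 860 reads in the Prol libraries and at 62, 34 and 30 in Sen (IR). In the depleted group the counts were 3, 1 and 4, with acetate 13, 7 and 10, with mtDNA 0 in all 3 libraries, and with both 17, 19 and 16. The Prol libraries were thus far above all others, and the mtDNA libraries held no read. From the summed counts of 126 and 8 reads, the CPM of Sen (IR) was 16.6 times that of the depleted group, with an exact 95% interval of 8.18 to 39.3, given with no test. The acetate group was 3.17 times the depleted group (30 against 8 reads, interval 1.42 to 7.997), and the combination group 7.47 times (52 against 8 reads, interval 3.52 to 18.2). These intervals cover counting error only.

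In the edgeR test PTGIS passed for acetate (adjusted p = 0.0178), for the combination over the depleted group (adjusted p = 3.9e-05) and over the acetate group (adjusted p = 0.0314, 2.36 times, interval 1.48 to 3.83). The call for acetate was lost without replicate 2 of the depleted group (adjusted p = 0.104) or replicate 1 of the acetate group (adjusted p = 0.0801), and by limma on the TPM scale (adjusted p = 0.104). The call for the combination over the acetate group was lost in 4 of the 6 fits that left out 1 library: without replicate 2 or 3 of the acetate group (adjusted p = 0.149 and 0.123) and without replicate 2 or 3 of the combination group (adjusted p = 0.117 and 0.0577). It was lost as well when only the compared groups were fitted (adjusted p = 0.106) and by limma on the TPM scale (adjusted p = 0.0676). The mtDNA group against the depleted group had an edgeR adjusted p of 0.0498, from 0 against 8 reads, which was lost in 5 of the 6 fits that left out 1 library, with adjusted p up to 0.139, and at 0.0527 with the replicate number as a block, at 0.0504 with DESeq2 size factors and at 0.476 by limma on the TPM scale. For acetate and for mtDNA over the depleted group, PTGIS entered the test only through its counts in other groups. When only the compared groups were fitted, it fell under the filter on low counts and has no value. Nothing is therefore drawn from either call. A floor of 3 reads per library, used where a group holds 0 reads, is 0.104 CPM in the mtDNA group. The mean of the depleted group, 0.0847 CPM, lies under it although replicate 3 with 4 reads does not, so no fold is given between these groups. Over that floor PTGIS was at least 5.75-fold higher in the combination group (edgeR adjusted p = 1.7e-06) and, as a description, at least 12.1-fold higher in Sen (IR) and at least 233-fold higher in Prol.

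**Figure D4:**
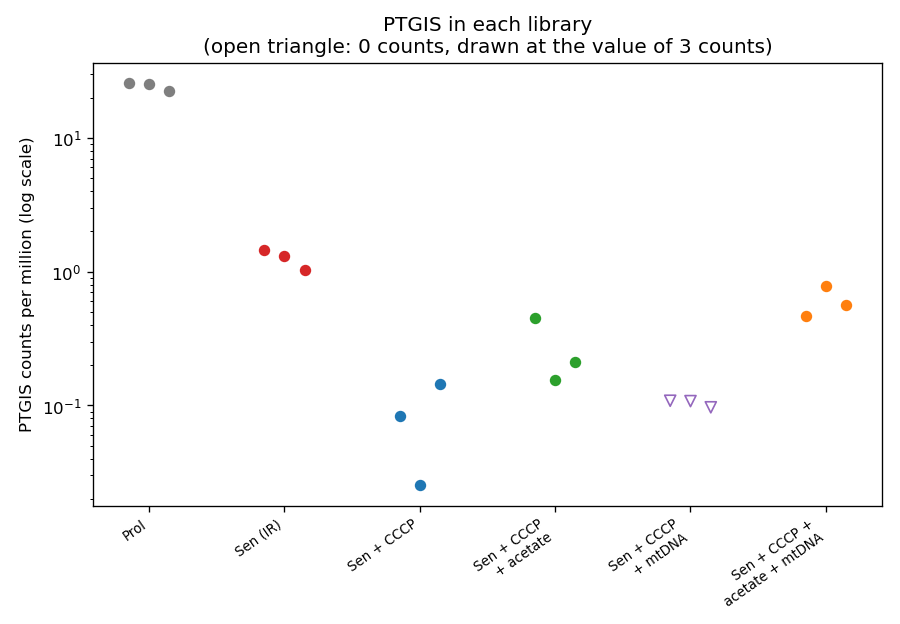
PTGIS level in CPM (vertical axis, log scale) in each of the 18 libraries by group, with filled points for libraries with reads and open triangles, at the value of 3 counts, for the 3 mtDNA libraries with 0 counts. The Prol libraries lie at 22.3 to 25.5 CPM, Sen (IR) at 1.03 to 1.46 CPM and the combination group at 0.463 to 0.779 CPM.

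HPGD was close to absent from these libraries. It was counted at 0 in 14 of the 18, with 8 reads in all and at most 4 in a library. A count of 0 allows a level up to 3 reads, which is 0.0630 to 0.123 CPM depending on the library. It was not tested, and no change could be seen at this depth.

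The order of the group means on the TPM scale shows where neighbours cannot be separated on that scale, and CPM is set beside it. For PTGS2 the order was combination (78.8 ± 5.22), acetate (61.7 ± 4.43), Sen (IR) (50.6 ± 0.79), mtDNA (30.8 ± 2.46), depleted (17.5 ± 0.71) and Prol (5.08 ± 1.24 TPM), and no neighbouring groups overlapped in TPM. In CPM the PTGS2 libraries of acetate and Sen (IR) overlapped, and the means were reversed (65.0 and 66.9 CPM), so these groups cannot be separated. For PTGES it was combination (15.5 ± 5.41), acetate (13.2 ± 2.51), Sen (IR) (6.95 ± 0.22), Prol (6.39 ± 1.26), mtDNA (4.53 ± 1.10) and depleted (3.52 ± 0.54 TPM), and among neighbours only acetate and Sen (IR) had libraries that did not overlap. In CPM the PTGES libraries of Prol and mtDNA did not overlap either. For PTGS1 the combination (93.6 ± 13.8), acetate (80.4 ± 4.76), Prol (79.7 ± 2.30) and Sen (IR) (72.98 ± 6.63 TPM) formed a high set, far above the mtDNA (41.5 ± 2.41) and depleted (37.7 ± 1.06 TPM) groups. In CPM the order within that high set was Prol (123), combination (111), Sen (IR) (106) and acetate (93.0 CPM).

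Genes with the most similar course over the 6 groups were looked up among 16933 tested genes with the root mean square difference of centred log2 CPM group means, as a description over 6 points. For PTGS2 these were C11orf96 (0.35), DMRTA1 (0.38) and IL20 (0.41). For PTGES they were HOXA6 (0.09), HID1 (0.11) and FBXO48 (0.11). For PTGIS they were AQP1 (0.66), TMEM176B (0.96) and TMEM176A (1.04). This difference grows with the range and the noise of a gene, so it is not compared between the 3 genes.

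Among 48 other genes of arachidonate and prostanoid metabolism, 35 were tested. With depletion, 6 rose and 18 fell over Sen (IR), with a median of -0.41, and these 68.6% are close to the 65.2% of all genes tested. The fallers by group were 8 of 11 genes of arachidonate supply (1 rose), 5 of 7 other prostanoid synthases (2 rose), 2 of 6 other prostanoid receptors (1 rose), 2 of 6 transport and inactivation genes (2 rose) and 1 of 5 genes of the lipoxygenase and leukotriene branch (0 rose). The largest changes were falls of PTGDS, which makes prostaglandin D2 (-2.51 ± 0.34), of AKR1C3, an aldo-keto reductase that can make prostaglandin F2 (-2.30 ± 0.62, with 50, 11 and 10 reads in Sen (IR), and an adjusted p of 0.0744 without replicate 1, the first of these), and of AKR1B1, aldose reductase, which can do the same (-1.63 ± 0.06, edgeR adjusted p = 4.2e-16).

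With acetate, 10 of the 35 rose and 8 fell over the depleted group, with a median of 0.05, or 51.4% beside 57.1% of all genes tested. AKR1B1 rose by 2.10 ± 0.06 (edgeR adjusted p = 5.8e-17), CYP4F3, at most 13 reads in a library, fell by 2.15 ± 0.75 and PTGER1, the EP1 receptor, fell by 1.13 ± 0.44. CYP4F3 lost its call without replicate 1 of the depleted group (adjusted p = 0.102) or replicate 2 of the acetate group (0.0889). PTGER1 kept its call without replicate 2 of the acetate group (0.0312) and lost it without any of the other 5 libraries, with adjusted p up to 0.139. Both lost it in the DESeq2 Wald test (adjusted p = 0.0510 and 0.0555). When only the compared groups were fitted, CYP4F3 fell under the filter on low counts, so it entered the test only through counts in other groups. With mtDNA, 5 rose and 3 fell (22.9% beside 18.1%), among them PTGIR, the prostacyclin receptor, at 0.83 ± 0.27 (edgeR adjusted p = 0.0347), PLA2G4B at -1.50 ± 0.47 and LTB4R, a leukotriene B4 receptor, at -0.87 ± 0.20. PTGIR kept its call without replicate 2 of the mtDNA group (adjusted p = 0.0278) and lost it without any of the other 5 libraries (up to 0.113), and PLA2G4B lost its call without any 1 of the 6 (0.0553 to 0.123). With both, 10 rose and 7 fell over the depleted group (48.6% beside 61.7%), led by AKR1B1 (1.958 ± 0.057), PTGDR2 (-1.77 ± 0.75) and PLA2G16 (1.26 ± 0.10). PTGDR2 was counted at 5, 9 and 10 reads in the depleted libraries and at 5, 1 and 0 in the combination libraries. The change of PTGDR2 ran from -3.37 to -1.22 with 1 library left out, and its call was lost without replicate 2 or 3 of the depleted group (adjusted p = 0.0779 and 0.154) or of the combination group (0.103 and 0.168). Its call was lost too in the DESeq2 Wald test (adjusted p = 0.0537). When only the compared groups were fitted, PTGDR2 fell under the filter on low counts, so it entered the test only through counts in other groups. The combination over the acetate group called 2 higher and 2 lower (11.4% beside 12.6%), with LTB4R at -0.70 ± 0.20 (adjusted p = 0.135 without replicate 2 of the acetate group, and 0.0512 and 0.0562 without replicate 1 or 3 of the combination group), PLA2G4C at 0.55 ± 0.08 and PTGFR, the prostaglandin F receptor, at 0.25 ± 0.06. The combination over the mtDNA group called 10 higher and 8 lower (51.4% beside 57.4%), with AKR1B1 at 1.76 ± 0.06, CBR3 at -1.08 ± 0.20 and PLA2G12A at 1.02 ± 0.06.

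Cyclic AMP raised through EP2 and EP4 acts on transcription through CREB, so 10 known CREB and cyclic AMP target genes were read beside the receptors. They were chosen for that role and many other signals also induce them. All 10 were tested. In the depleted group 8 rose over Sen (IR) and 0 fell, with a median of 1.00, where 65.2% of all genes tested were called. With acetate 1 rose and 6 fell over the depleted group (median -0.27, beside 57.1% of all genes called), with mtDNA 4 rose and 0 fell (0.22, beside 18.1%), and with both 3 rose and 5 fell (-0.13, beside 61.7%). Over the acetate group the combination had 2 higher and 0 lower (beside 12.6%), and over the mtDNA group 1 higher and 6 lower (beside 57.4%). Nothing is read from these counts about the list as a whole. NR4A2, a nuclear receptor and the member with the highest level among the NR4A genes, chosen after its values were seen, stood at 11.2 ± 1.36 TPM in Sen (IR), 93.6 ± 3.74 in the depleted group, 50.9 ± 3.50 with acetate, 101 ± 2.46 with mtDNA and 42.0 ± 6.20 TPM with both. NR4A3 and FOSB, also named after their values were seen, moved in the same directions. In the depleted group they rose over Sen (IR) by 2.02 ± 0.12 and 3.14 ± 0.20 on the log2 scale. With acetate NR4A3 and FOSB changed by -0.91 ± 0.11 and -1.12 ± 0.16 over the depleted group. Not every gene of the list fell with acetate. With acetate, NR4A1 differed by 0.08 ± 0.10 (edgeR adjusted p = 0.492) and DUSP1, the gene that rose, by 0.57 ± 0.08 (edgeR adjusted p = 4.0e-06).

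Some gene models resemble the named genes and could take or give reads. PTGES3 has the pseudogenes PTGES3P1 to PTGES3P5, of which PTGES3P1 was counted highest, at up to 57 reads in a library, beside 6829 reads or more for PTGES3. PTGER4P2 was counted at up to 11 reads, beside 195 reads or more for PTGER4. PTGES2-AS1, antisense to PTGES2, was counted at up to 16 reads, beside 269 reads or more for PTGES2. These counts are small beside those of the genes themselves.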

How the data were processed

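RNA of 18 libraries (6 groups of 3) was analysed. Per the labels and the study's methods, read pairs were trimmed by the authors (Trimmomatic 0.36), STAR 2.5.2b placed them on GRCh38, and featureCounts (Subread 1.5.2) summed those with a unique position per gene over its exons. The deposited counts are whole, not normalized numbers of reads per gene, and the deposited TPM values are scaled by the authors for transcript length and library size. The annotation release is not given in the sources used here. From all the deposited columns, 0 were left out. Totals of 24624886 to 46224280 counts per library give counting errors that matter for genes at a few reads, and the intervals cover counting error only.

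Counts of all genes were fitted in edgeR 4.0.16 (R 4.3.3), with TMM scaling, its filter on low counts by group, 6 group means, the quasi-likelihood test and Benjamini-Hochberg adjustment over 16994 genes at a threshold of 0.05. CPM uses the TMM library sizes. PTGIS ratios use summed counts with exact 95% intervals, and 3 counts per library serve as the floor where a count is 0. Of the genes, 485 have no symbol and stay in the fit under their identifiers. The script was tested on simulated data. Alternatives were DESeq2 1.42.0 size factors and its Wald test (also with the study's rule of a nominal p under 0.05 and a log2 change over 0.5), no filter, at least 10 counts in every library, a fit of just the groups being compared, a replicate block and each library left out in turn. A fit of limma 3.58.1 on log2(TPM + 1), and all alternatives for the other pathway genes named, were added after seeing the data.

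The genes tested are named in every comparison. From the lists of other pathway genes (arachidonate supply, other prostanoid synthases, other prostanoid receptors, transport and inactivation, lipoxygenase and leukotriene branch) the 3 largest changes past the threshold per comparison are named, the CREB list is counted, and the 3 genes nearest in course to PTGS2, PTGES and PTGIS are named. The genes, lists and tests were chosen with earlier results of these data known. A detail of how the cells of all groups were made, and its check in the data, are not reported here.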

Additional observations from a re-analysis of the deposited data

Results flagged for a closer look

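AKR1B1, aldose reductase, is named among the other prostanoid synthases. Its gain with acetate was smaller with mtDNA than without, by a tested difference of -0.34 ± 0.08 on the log2 scale (edgeR adjusted p = 0.0398 over all genes tested), the gains being 1.76 ± 0.06 and 2.10 ± 0.06. The call was lost in 9 of the 12 fits that left out 1 library (adjusted p up to 0.131), all but those without replicate 2 of the acetate group (0.0234), replicate 3 of the mtDNA group (0.0351) or replicate 2 of the combination group (0.0109), with DESeq2 size factors (0.0784) and by limma on the TPM scale (0.0728), and kept in the DESeq2 Wald test (0.0112). In groups of 3 the gap of a single library was not tested gene by gene.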

How the results depend on the processing

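Of 104 counts of called genes under the alternatives, 91 stayed within 1.5 times the reported count and 13 did not. A count can stay while its genes change. With only the compared groups fitted in edgeR, acetate kept 6 genes and mtDNA kept 3 over the depleted group, both without PTGIS. PTGER2 (adjusted p = 0.0207) took its place for acetate and PTGS1 (adjusted p = 0.0133) for mtDNA. The interaction, with 0 genes called, had 2 with no filter on low counts, 2 by the DESeq2 Wald test, and 1 when only the groups compared were fitted. Under the study's rule of a nominal p and a fold, DESeq2 called 3 genes for depletion over Sen (IR), 4 for the combination over the depleted group, 4 over the mtDNA group and 1 for the interaction. On TPM, limma called 1 gene for mtDNA over the depleted group. Leaving out 1 library gave 1 to 2 genes for mtDNA over the depleted group (1 without replicate 1 of either), 1 to 4 for the combination over acetate (1 without replicate 2 of either) and 0 to 1 for the interaction (1 without replicate 2 of the combination group). The cause of these moves was not tested, except that the study's rule drops changes under its fold by construction.

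Of 914 log2 changes of single genes under the alternatives, 820 kept their direction and their side of the threshold, 47 were no longer past it, 25 were newly past it and 22 changed sign. On TPM the changes of other sign were PLA2G4A (0.017) and PTGER4 (0.15) for depletion over Sen (IR), PTGES2 (-0.040) and PTGES3 (-0.042) for mtDNA over the depleted group and PTGER2 (-0.011) for the combination over the depleted group. With 1 library left out, the range held both signs for PLA2G4A with acetate over the depleted group (-0.11 to 0.064), for the combination over mtDNA (-0.12 to 0.039) and in the interaction (-0.097 to 0.088). The same held for PTGES2 with mtDNA (-0.016 to 0.084), PTGES for the combination over acetate (-0.037 to 0.46), and the interaction of PTGS1 (-0.098 to 0.11), PTGER2 (-0.076 to 0.10) and PTGES (-0.48 to 0.00064). In none of these was the main change past the threshold except PLA2G4A and PTGER4 with depletion. PTGS1, PTGS2 and PTGES passed, with the same sign, under every alternative run for depletion, acetate and the combination over the depleted group.

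Of 265 changes of the other pathway genes named, 223 kept their direction and their side of the threshold, 42 were no longer past it and 0 changed sign.

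The replicate numbers did not pair the samples: the 18 correlations of deviations between samples of the same number ran from -0.07 to 0.04, with 0 over 0.1. With the replicate block the counts of called genes were 7, 6, 2, 7, 3, 7 and 0 in the order of the 7 tested comparisons above, and 1 call was lost, PTGIS for mtDNA over the depleted group (adjusted p = 0.0527). The filter of at least 10 counts in every library kept 13249 genes and 8 of the 10 described, without PTGIS and HPGD, so PTGIS has no value there. Depth limits PTGIS outside Prol and HPGD throughout.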
